A study of Mus musculus with 15 samples.

Results

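Members of the mitochondrial carrier family were followed in ventricles of mice with an inducible heart knockout of Acsl1, an enzyme that joins coenzyme A to long-chain fatty acids and so readies them for burning. The members were taken by name, as every gene on the array whose symbol begins with Slc25a together with the uncoupling proteins Ucp1 and Ucp3, with the carnitine and acylcarnitine carrier Slc25a20 left out. Ucp2 was sought as well, but no probe carried its symbol alone in the annotation used, so it was not analysed here. This gave 46 genes, read by 76 probes, out of 19532 genes in all. Both genotypes are labelled C57Bl/J6, were male, and received tamoxifen at 75 mg/kg on 4 days at 6 to 8 weeks of age. The groups were Acsl1H-/- hearts 10 weeks after tamoxifen (n = 4), Acsl1flox/flox hearts 10 weeks after tamoxifen (n = 4), Acsl1H-/- hearts 2 weeks after tamoxifen (n = 3) and Acsl1flox/flox hearts 2 weeks after tamoxifen (n = 4). They are called knockouts and controls below. The controls were littermates with flox alleles, no group carried the recombinase without loss of Acsl1, and the promoter that drives the recombinase is not given in the sources used here. An effect of the deletion therefore cannot be told apart from one of the recombinase.

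Each array set heart RNA, labelled with Cy5, against RNA of whole neonatal mice, labelled with Cy3. The deposited values are read here as log2 ratios of heart over that reference, and every probe had been centred on a median of 0 over the 15 arrays. They show how arrays differ for a gene and give no level, so genes are not ranked by abundance and the defining markers of heart cannot be checked for presence. The labels' dyes make this direction likely, but it was not checked here, for example on the values of Acsl1 itself. Were the ratio the other way round, every higher value below would be a lower one and the p-values would stay as they are.

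Carriers of this family sit in the inner mitochondrial membrane and exchange metabolites, nucleotides, phosphate and cofactors between the matrix and the cytosol. In the heart they export ATP in exchange for ADP, bring in phosphate for its synthesis, and carry the intermediates of the malate-aspartate shuttle, which passes reducing equivalents from the cytosol into the matrix. The uncoupling proteins belong to the same family. Ucp1 lets protons leak back into the matrix in brown fat, and Ucp3 is the form of skeletal muscle and heart, known in rodents as a target of PPAR nuclear receptors that rises when fatty acids are in supply.

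The upstream sequences of 4 members are shown because the results below turn on them: Ucp3 and Slc25a5, which lay higher in knockouts, Slc25a11, which lay lower, and Slc25a4, the close relative of Slc25a5 that hardly differed. Each is the stretch of 250 bases before the annotated start of the gene, 5′ to 3′, from RefSeq on GRCm38.p6. Capitals mark the half-site AGGTCA, or its reverse complement, that PPAR and related nuclear receptors bind.
Ucp3 at chr7:100472741-100472990, plus strand: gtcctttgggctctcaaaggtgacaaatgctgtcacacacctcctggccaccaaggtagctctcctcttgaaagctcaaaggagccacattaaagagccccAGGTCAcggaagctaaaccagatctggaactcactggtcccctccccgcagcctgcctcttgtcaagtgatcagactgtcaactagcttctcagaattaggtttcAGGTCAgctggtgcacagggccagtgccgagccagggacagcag
Slc25a5 at chrX:36795347-36795596, plus strand: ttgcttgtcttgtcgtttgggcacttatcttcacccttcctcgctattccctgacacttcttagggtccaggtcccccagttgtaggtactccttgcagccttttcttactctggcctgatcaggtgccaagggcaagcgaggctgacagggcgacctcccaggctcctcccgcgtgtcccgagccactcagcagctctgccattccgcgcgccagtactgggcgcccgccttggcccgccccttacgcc
Slc25a11 at chr11:70647040-70647289, minus strand: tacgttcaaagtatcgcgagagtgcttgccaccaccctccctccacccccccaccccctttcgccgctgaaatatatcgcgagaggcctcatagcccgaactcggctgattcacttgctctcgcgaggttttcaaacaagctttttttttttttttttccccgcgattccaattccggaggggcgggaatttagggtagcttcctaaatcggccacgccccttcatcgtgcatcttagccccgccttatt
Slc25a4 at chr8:46211063-46211312, minus strand: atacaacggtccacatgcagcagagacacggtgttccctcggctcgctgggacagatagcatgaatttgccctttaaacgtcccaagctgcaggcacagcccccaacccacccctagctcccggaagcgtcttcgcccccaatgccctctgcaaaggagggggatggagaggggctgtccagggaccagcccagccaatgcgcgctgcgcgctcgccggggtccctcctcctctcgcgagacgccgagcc

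The Ucp3 window held 2 half-sites, at positions -149 and -44 relative to the start, and the windows of Slc25a5, Slc25a11 and Slc25a4 held none. Of the 36 members with a window, 6 (16.7%) held the half-site on either strand, against 14.3% of 15594 genes on the array. The 6 were Slc25a34, Slc25a39, Slc25a45, Slc25a47, Ucp1 and Ucp3. The PPAR element was sought only as an exact direct repeat of the half-site with 1 base between the copies. Among the 36, 0 held that repeat, the estrogen-related receptor site TCAAGGTCA, which holds the half-site too, or the composite site TGATGNAAN of ATF4. Over all genes the shares were 0.0641%, 0.295% and 3.18%. Looser forms of these sites were not searched, so the members were not shown to lack them. The E-box CACGTG was found in 7 of the 36 (19.4%), against 8.18% of all genes, and the GC box GGGCGG in 23 (63.9%), against 49.9%. The median GC content was 59.2% in the members' windows, against 56.8% over all genes, and its part in these shares was not tested. A match is a stretch of letters in a short window and was not tied to any binding here.

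No carrier gene passed the test at either time. At 10 weeks limma called 0 of 46 members at an adjusted p under 0.05, where it called 0.686% of all genes. At 2 weeks it called 0 of 46, where 0.00512% of all genes were called. Without adjustment, 6 members had p under 0.05 at 10 weeks, 13% of them against 9.96% of all genes. Of these, 3 were higher in knockouts (Ucp3, Slc25a5 and Slc25a22, where 4.75% of all genes were) and 3 lower (Slc25a11, Slc25a16 and Slc25a29, where 5.21% were). At 2 weeks 4 had p under 0.05, 8.7% against 7.25% of all genes. They were Slc25a5 and Slc25a43 on the higher side (3.62% of all genes) and Slc25a34 and Slc25a51 on the lower side (3.63%).

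The family as a whole was centred on no difference. The median log2 difference, knockout minus control, was 0.0030 over the members at 10 weeks, against -0.018 over all genes, and 24 members lay above 0 and 22 below. At 2 weeks the median was 0.016, against -0.022 over all genes, with 24 above 0 and 22 below again. Single differences ran from -0.87 to 1.24 at 10 weeks and from -1.35 to 0.46 at 2 weeks. Groups did not overlap for 5 members at 10 weeks, 10.9% of them against 6.6% of all genes. Knockouts were above all controls for 3 (3.24% of all genes) and below for 2 (3.36%). At 2 weeks this held for 4 members, 8.7% against 8.78% of all genes, with 2 above (4.26%) and 2 below (4.52%). Slc25a5 was the 1 member whose knockouts lay beyond all controls the same way at both times, which 0.64% of all genes did.

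**Figure D1:**
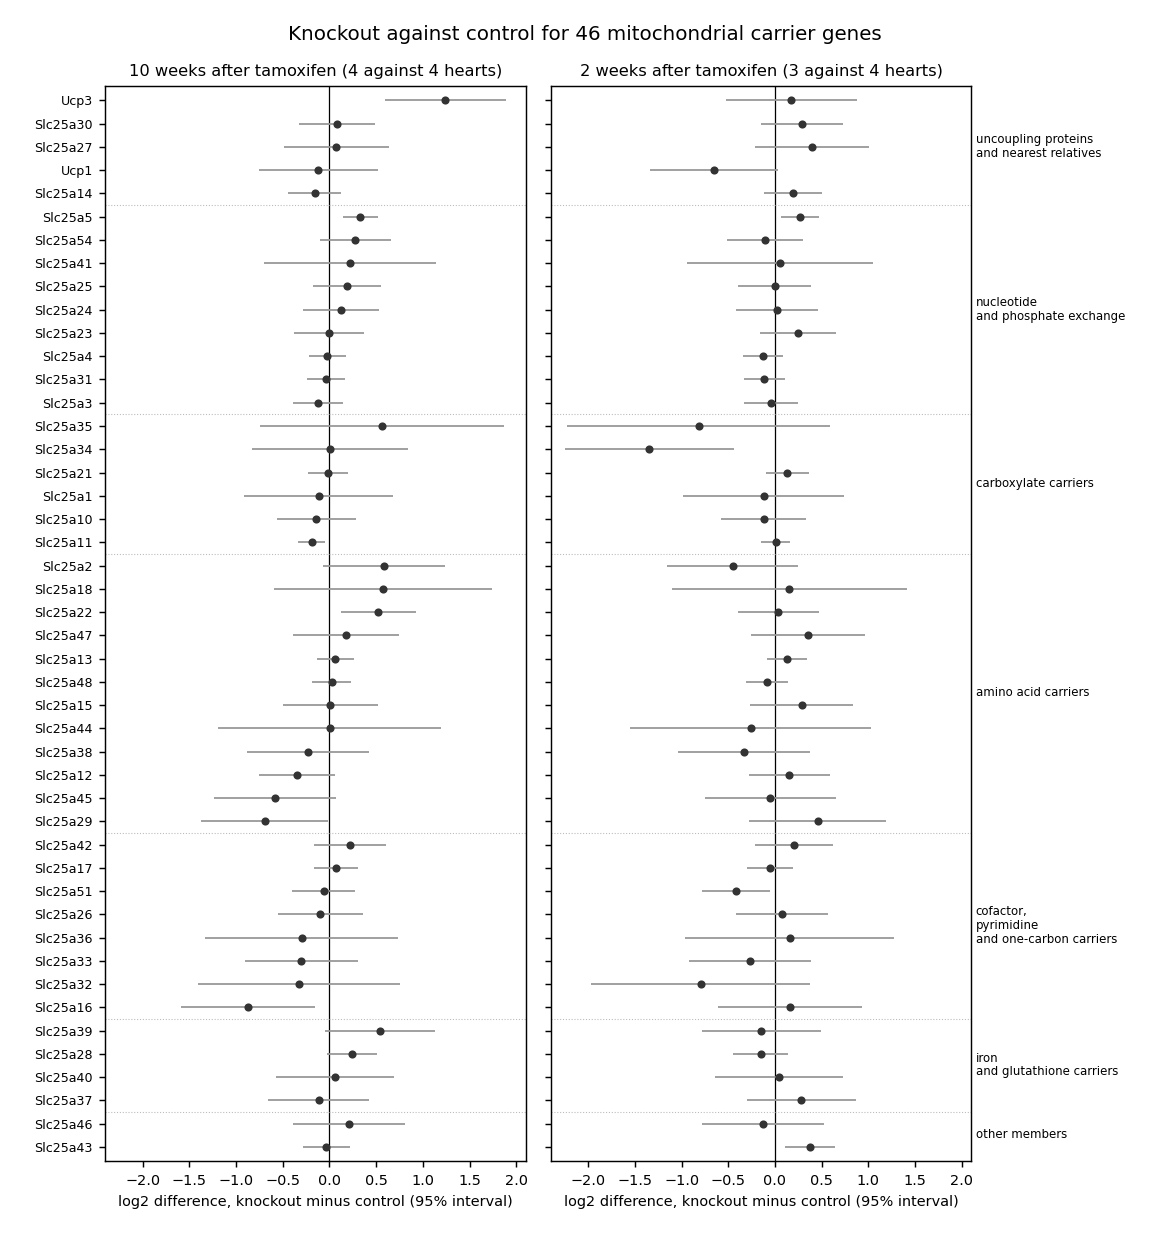
Log2 difference, knockout minus control, of each of the 46 carrier genes at 10 weeks (left) and 2 weeks (right), grouped by what they carry; points are limma estimates and bars are 95% intervals. Most intervals cross 0, Ucp3 stands highest at 10 weeks at 1.24, and Slc25a34 stands lowest at 2 weeks at -1.35.

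Among the uncoupling proteins, Ucp3 had the largest difference of the family at 10 weeks. Its values were 0.56, 0.79, 0.73 and 0.57 in knockouts at 10 weeks, against -0.35, -0.18, -0.55 and -1.22 in controls of that time. All 4 knockouts lay above all 4 controls, and the knockouts lay close together while the controls were spread. The means were 0.66 ± 0.12 in knockouts and -0.58 ± 0.45 in controls (SD, n = 4 each), a log2 difference of 1.24 ± 0.30 (SE, 2.36-fold), with a 95% interval from 0.59 to 1.89. The adjusted p was 0.0976, and the unadjusted p of 0.00118 ranked 237 among the 19532 genes. At 2 weeks the groups overlapped, with 0.45, -0.10 and 0.00 in knockouts and 0.11, -0.90, -0.18 and 0.76 in controls, and the difference was 0.17 ± 0.32 (SE, adjusted p = 0.933). The knockout effect at 10 weeks minus that at 2 weeks was 1.07 ± 0.44 (SE, adjusted p = 0.693), so a change between the times was not shown.

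Neither genotype passed the test for Ucp3 over time. Taken as 10 minus 2 weeks, the difference was 0.54 ± 0.32 in knockouts and -0.52 ± 0.30 in controls (SE, adjusted p = 0.572 and 1.00). Leaving out 1 array at a time moved the difference at 10 weeks between 1.03 and 1.37 and its adjusted p between 0.0425 and 0.230, and other settings gave an adjusted p between 0.0804 and 0.188. The 1 array whose loss brought it under 0.05 was control 2 weeks replicate 2, which is no part of the 10-week comparison and enters through the shared estimate of the spread. Markers of skeletal muscle, where Ucp3 is also expressed, overlapped between the groups. Their list mean at 10 weeks lay between -0.09 and 0.27 in knockouts, against -0.27 and 0.26 in controls, and 3 of 8 markers were above 0 in the difference.

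**Figure D2:**
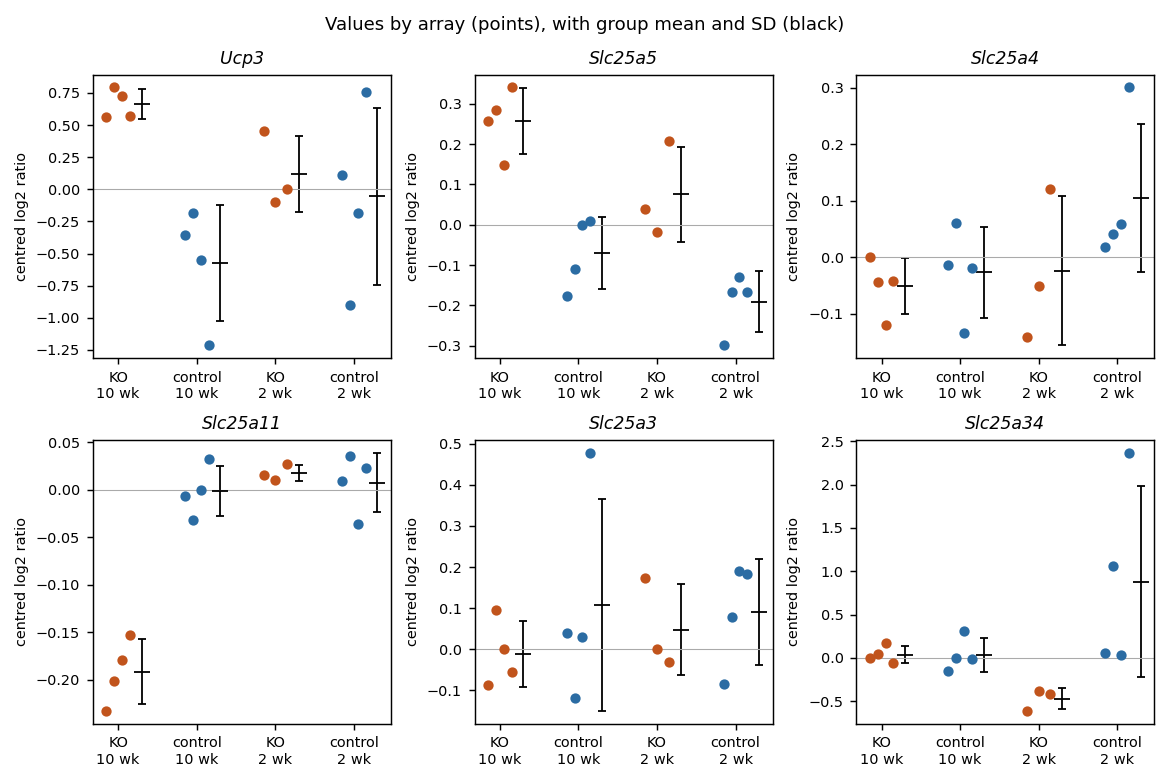
Centred log2 ratio of every array for 6 carrier genes, with knockouts in orange, controls in blue, and group means with SD in black; the vertical scale differs between panels. Knockouts at 10 weeks stand above controls for Ucp3 and Slc25a5 and below them for Slc25a11, and the groups overlap for Slc25a4 and Slc25a3.

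Ucp1 did not part the groups. It had -0.67, -0.04, 0.42 and -0.26 in knockouts at 10 weeks, against 0.40, -0.30, -0.09 and -0.09 in controls. At 2 weeks it had 0.10, 0.00 and -1.14 in knockouts, against 0.74, 0.16, 0.01 and 0.31 in controls, a difference of -0.65 ± 0.32 (SE, adjusted p = 0.705) in which 1 low knockout array weighed heavily. Without knockout 2 weeks replicate 3 it was -0.26. The 6 other markers of brown fat had a list mean between -0.02 and 0.32 in knockouts, against -0.05 and 0.13 in controls, at 10 weeks, with 4 above 0. Cidea, a lipid droplet protein of brown fat, rose there with a log2 difference of 0.69 ± 0.12 (SE, adjusted p = 0.0249). Cox7a1, a cytochrome oxidase subunit that heart muscle uses too, fell there with a log2 difference of -0.56 ± 0.10 (SE, adjusted p = 0.0236). At 2 weeks the list mean lay between 0.03 and 0.61 in knockouts, against -0.19 and 0.00 in controls. Of the 6 differences there 4 were above 0, and Dio2 stood out at 1.55 with a knockout SD of 1.98 (n = 3), while the other 5 lay between -0.13 and 0.21. Their part in the values of Ucp1 was not tested. The relatives Slc25a14, Slc25a27 and Slc25a30, whose substrates are less settled, had differences of -0.16, 0.07 and 0.08 at 10 weeks. At 2 weeks they had 0.19, 0.40 and 0.29, and the lowest adjusted p among them at either time was 0.782. The 2-week probes of Slc25a27 lay at 1.08, 0.70 and -0.59. Those of Slc25a30 lay at 0.58 and -0.01, and those of Slc25a14 at 0.00, 0.56 and 0.01.

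Of the ATP and ADP carriers, Slc25a5 had knockouts above controls at both times, and the groups overlapped for Slc25a4. Slc25a5, which encodes the isoform of proliferating and non-muscle cells, had 0.26, 0.29, 0.15 and 0.34 in knockouts at 10 weeks, against -0.18, -0.11, 0.00 and 0.01 in controls. At 2 weeks it had 0.04, -0.02 and 0.21 in knockouts, against -0.30, -0.17, -0.13 and -0.17 in controls. At both times every knockout lay above every control. The differences were 0.33 ± 0.09 at 10 weeks (SE, 1.25-fold, 95% interval 0.14 to 0.51, adjusted p = 0.133) and 0.27 ± 0.09 at 2 weeks (SE, 1.2-fold, 95% interval 0.06 to 0.47, adjusted p = 0.611). They rested on separate arrays, and the difference between them was 0.06 ± 0.13 (SE, adjusted p = 0.925).

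Fibroblast markers lay on the same side as Slc25a5. All 8 of them were above 0 in the difference at both times, none passing the test. Their list mean lay between -0.02 and 0.29 in knockouts, against -0.29 and -0.14 in controls, at 10 weeks. At 2 weeks it lay between 0.17 and 0.78 in knockouts, against -0.16 and 0.19 in controls. Their part in the Slc25a5 result was not tested. In ventricle RNA, a change in the number of cells of a type and a change in RNA per cell cannot be told apart.

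Slc25a4, the main isoform of adult heart and muscle, differed by -0.02 ± 0.09 at 10 weeks (SE, adjusted p = 0.971), with a 95% interval from -0.22 to 0.17. Its values were 0.00, -0.04, -0.12 and -0.04 in knockouts, against -0.01, 0.06, -0.13 and -0.02 in controls. At 2 weeks it had -0.14, -0.05 and 0.12 in knockouts, against 0.02, 0.04, 0.06 and 0.30 in controls, a difference of -0.13 ± 0.10 (SE, adjusted p = 0.799) with an interval from -0.34 to 0.09. Its 2 probes followed each other over the arrays with r = 0.886, the closest agreement in the family. The phosphate carrier Slc25a3, whose product supplies phosphate to ATP synthase, had -0.09, 0.10, 0.00 and -0.05 in knockouts at 10 weeks, against 0.04, -0.12, 0.03 and 0.48 in controls. Its difference was -0.12 ± 0.12 at 10 weeks (SE, adjusted p = 0.842) and -0.04 ± 0.13 at 2 weeks (SE, adjusted p = 0.961). At 10 weeks it was 0.00 without control 10 weeks replicate 4. Its 3 probes lay at -0.08, -0.18 and -0.09 at 10 weeks, with SDs within groups of 0.148, 0.138 and 0.474. Their median correlation with each other was -0.161, so the spread of the gene mean came largely from 1 probe.

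None of the remaining nucleotide carriers passed the test. Slc25a31, the ATP and ADP carrier of male germ cells, differed by -0.04 at 10 weeks and -0.11 at 2 weeks. The calcium-dependent carriers of ATP-magnesium and phosphate, Slc25a23, Slc25a24 and Slc25a25, differed by -0.01, 0.12 and 0.19 at 10 weeks and by 0.25, 0.02 and 0.00 at 2 weeks. For Slc25a23 the 3 knockouts at 2 weeks lay above all 4 controls, at 0.14, 0.04 and 0.00 against 0.00, -0.02, -0.45 and -0.30. The lowest knockout, at 0.0022, barely cleared the highest control, at 0, and the adjusted p from limma was 0.794. Slc25a41 and Slc25a54 differed by 0.22 and 0.28 at 10 weeks. In Slc25a41 a single knockout array stood at 2.11, with the other 3 between -0.24 and -0.04. That array, knockout 10 weeks replicate 4, also stood at 2.84 for Slc25a18, a glutamate carrier, with the other 3 knockouts between -0.37 and 0.08. This was picked out after the values were seen.

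Among the carboxylate carriers, Slc25a11 gave the tightest separation of the family. It encodes the exchanger of oxoglutarate and malate, a part of the malate-aspartate shuttle. Its values were -0.23, -0.20, -0.18 and -0.15 in knockouts at 10 weeks, against -0.01, -0.03, 0.00 and 0.03 in controls of that time. At 2 weeks they were 0.02, 0.01 and 0.03 in knockouts, against 0.01, 0.04, -0.04 and 0.02 in controls. The 11 arrays outside the 10-week knockouts thus lay between -0.04 and 0.04, and the 4 knockouts at 10 weeks stood together below them.

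The difference of Slc25a11 at 10 weeks was -0.19 ± 0.07 (SE, 0.877-fold, 95% interval -0.33 to -0.05), with an adjusted p of 0.303. Its SD within groups was 0.0281, the 12th smallest of 19532 genes. limma's moderation draws such a spread up towards that of the other genes, and with the gene's own spread alone the SE was 0.0198 and the adjusted p 0.00172. Over all other settings that kept every array in its group the adjusted p lay between 0.00172 and 0.501 for Slc25a11 and between 0.0398 and 0.226 for Slc25a5. The setting without moderation was chosen after the values were seen, and it called 196 genes in all at 10 weeks, Slc25a5 among them with an adjusted p of 0.0398. At 2 weeks the difference was 0.01 ± 0.07 (SE, adjusted p = 0.985). The effect at 10 weeks minus that at 2 weeks was -0.20 ± 0.10 (SE), with an adjusted p of 0.751 with moderation and 0.0961 without it. Markers of cardiomyocytes overlapped between the groups at 10 weeks, with a list mean between -0.24 and 0.00 in knockouts, against -0.05 and 0.15 in controls.

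**Figure D3:**
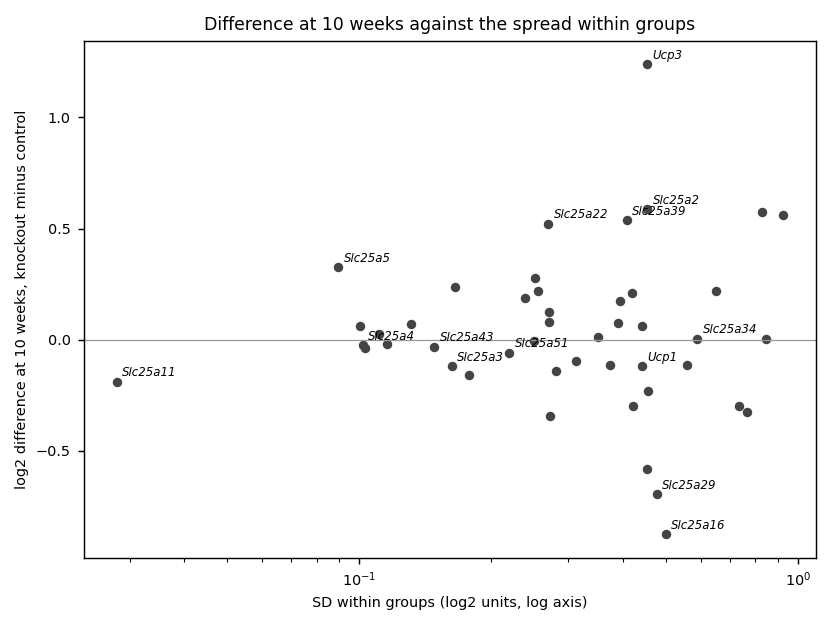
Log2 difference at 10 weeks, knockout minus control, against the pooled SD within groups (log axis) for the 46 carrier genes, with the genes described array by array named. Slc25a11 lies far to the left with an SD of 0.0281, and Ucp3 lies highest at 1.24.

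The aspartate and glutamate carriers of the same shuttle did not separate. Slc25a12, the form of heart, muscle and brain, differed by -0.35 at 10 weeks and 0.16 at 2 weeks, with its 3 probes between -0.70 and -0.05 at 10 weeks. Without control 10 weeks replicate 4 the first was -0.19. Slc25a13, the form of liver, differed by 0.06 and 0.13, with 95% intervals from -0.14 to 0.26 and from -0.09 to 0.34.

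Slc25a34, a carrier with no settled substrate, had the largest difference of the family at 2 weeks. Its values were -0.61, -0.38 and -0.42 in knockouts, against 0.05, 1.06, 0.04 and 2.37 in controls. All knockouts lay below all controls, and 2 control arrays stood far above the other 2. The difference was -1.35 ± 0.42 (SE, 95% interval -2.25 to -0.44, adjusted p = 0.526), and it lay between -1.63 and -0.85 over the fits that each left out an array. Without control 2 weeks replicate 4 it was -0.85. At 10 weeks the groups met, with 0.00, 0.04, 0.18 and -0.06 in knockouts and -0.16, 0.00, 0.31 and -0.02 in controls. The related Slc25a35 had differences of 0.56 ± 0.60 and -0.81 ± 0.65 (SE) at 10 and 2 weeks and the widest spread in the family, an SD of 0.925 within groups. The citrate carrier Slc25a1, which supplies cytosolic acetyl-CoA, differed by -0.12 at each time, the dicarboxylate carrier Slc25a10 by -0.14 and -0.12, and the oxodicarboxylate carrier Slc25a21 by -0.02 and 0.13.

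Of the 12 amino acid carriers, 8 lay above 0 at 10 weeks and none passed the test. Slc25a22, which imports glutamate, had -0.17, 0.33, -0.09 and 0.44 in knockouts, against -0.55, -0.31, -0.23 and -0.49 in controls. The groups did not overlap, and the difference was 0.52 ± 0.19 (SE, adjusted p = 0.315). Its values at 2 weeks were 0.18, 0.58 and -0.34 in knockouts, against 0.00, 0.11, 0.03 and 0.28 in controls. The controls at 10 weeks lay below those at 2 weeks by 0.50 ± 0.19 (SE, adjusted p = 1.00), while the knockouts differed by -0.01 ± 0.20 between the times.

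Slc25a29, a carrier of basic amino acids, had a difference below 0 at 10 weeks and above 0 at 2 weeks. It had -0.02, 0.31, -1.06 and -0.34 in knockouts at 10 weeks, against 0.44, 0.71, 0.51 and 0.01 in controls, a difference of -0.69 ± 0.32 (SE, adjusted p = 0.491). Its 2-week values were -0.52, 0.31 and 0.63 in knockouts, against -0.26, -0.29, -0.85 and 0.14 in controls, a difference of 0.46 ± 0.34 (SE, adjusted p = 0.794). Leaving out 1 array moved the first between -0.89 and -0.43, the smallest without knockout 10 weeks replicate 3. It moved the second between 0.21 without knockout 2 weeks replicate 3 and 0.79 without knockout 2 weeks replicate 1. The groups overlapped at each time, and its 2 probes disagreed at 10 weeks, at -1.37 and -0.02.

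Single arrays weighed heavily in the means of the ornithine carrier Slc25a2. It had -0.07, 1.03, -0.06 and 0.04 in knockouts at 10 weeks, against -0.67, -0.35, -0.06 and -0.33 in controls, and -0.32, 0.11 and 0.00 in knockouts at 2 weeks, against 0.10, 0.10, 1.30 and 0.02 in controls. The differences were 0.59 ± 0.30 and -0.45 ± 0.33 (SE, adjusted p = 0.572 and 0.790), with 1 array above 1 in each. Without knockout 10 weeks replicate 2 the first was 0.32, and without control 2 weeks replicate 3 the second was -0.14. The other ornithine carrier, Slc25a15, differed by 0.01 and 0.28. Slc25a38, which serves glycine import for haem synthesis, differed by -0.23 and -0.33, and Slc25a44, a carrier of branched-chain amino acids, by 0.00 ± 0.55 and -0.26 ± 0.60 (SE). The glutamate carrier Slc25a18 differed by 0.57 ± 0.54 and 0.16 ± 0.58 (SE), the first being -0.19 without knockout 10 weeks replicate 4. Of the members with no settled substrate placed in this group, Slc25a45, Slc25a47 and Slc25a48 differed by -0.58, 0.17 and 0.03 at 10 weeks and by -0.05, 0.35 and -0.08 at 2 weeks. In Slc25a45 a single control array at 10 weeks, replicate 3, stood at 1.64, and the difference was -0.18 without it.

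Among the cofactor carriers, 6 of 8 lay below 0 at 10 weeks and none passed the test. Slc25a16, linked to the import of coenzyme A, had -0.77, -0.29, -0.33 and 0.00 in knockouts, against 0.61, 0.93, 0.24 and 0.33 in controls. The groups did not overlap and the difference was -0.87 ± 0.33 (SE, adjusted p = 0.355). At 2 weeks 1 knockout stood above and 1 below all controls, with 1.10, -0.92 and 0.19 against -0.14, 0.27, -0.19 and -0.11. Slc25a42, a carrier of coenzyme A, differed by 0.22 ± 0.18 and 0.20 ± 0.19 (SE) at 10 and 2 weeks.

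Slc25a51, the mitochondrial carrier of NAD, had -0.39, -0.30 and -0.26 in knockouts at 2 weeks, against 0.03, 0.06, 0.29 and 0.01 in controls. All knockouts lay below all controls, with a difference of -0.42 ± 0.17 (SE, adjusted p = 0.646) and probes at -0.59 and -0.24. At 10 weeks it had 0.41, -0.30, 0.01 and 0.01 in knockouts, against -0.03, 0.48, -0.13 and 0.05 in controls, and the difference was -0.06 ± 0.16 (SE, adjusted p = 0.960). The folate carrier Slc25a32 differed by -0.32 ± 0.50 and -0.80 ± 0.54 (SE), the pyrimidine nucleotide carriers Slc25a33 and Slc25a36 by -0.30 each at 10 weeks, the S-adenosylmethionine carrier Slc25a26 by -0.10 and the peroxisomal carrier Slc25a17 by 0.07.

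Of the 4 iron and glutathione carriers, none passed the test. Slc25a39, needed for glutathione import, had 0.63, 0.52, 0.12 and 0.02 in knockouts at 10 weeks, against 0.56, -0.16, -0.73 and -0.54 in controls. The groups overlapped through 1 high control, and the difference was 0.54 ± 0.27 (SE, adjusted p = 0.561). Its probes were at 0.93 and 0.14, and at 2 weeks the difference was -0.15 ± 0.29 (SE). Its relative Slc25a40 differed by 0.06 ± 0.29 at 10 weeks. The iron importers Slc25a28 and Slc25a37 differed by 0.24 ± 0.13 and -0.11 ± 0.25 at 10 weeks (SE). Slc25a37 is most abundant in erythroid cells, and it differed by 0.28 ± 0.27 (SE) at 2 weeks. That value rested on knockout 2 weeks replicate 1 at 0.98 and was -0.09 without it, and the 3 probes were at -0.25, 0.31 and 0.79. Red blood cell markers had a list mean between -0.61 and -0.45 in knockouts, against -0.38 and 0.13 in controls, at that time, with 0 of 5 markers above 0, and their part in the 2-week values was not tested.

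Slc25a43, a member with no settled substrate, had 0.33, 0.05 and 0.71 in knockouts at 2 weeks, against 0.00, -0.06, -0.04 and 0.05 in controls. Its difference was 0.38 ± 0.13 (SE, adjusted p = 0.577), with both probes above 0 at 0.19 and 0.56. Without knockout 2 weeks replicate 3 it was 0.20. At 10 weeks all 8 arrays lay between -0.11 and 0.03, with a difference of -0.03 ± 0.12 (SE, adjusted p = 0.970). Slc25a46, which acts at the outer membrane in mitochondrial dynamics, differed by 0.21 ± 0.28 and -0.13 ± 0.30 (SE) at 10 and 2 weeks.

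The differences at the 2 times were set side by side. Of the 46 members, 24 (52.2%) had the same sign at both times, as did 52.8% of all genes. The correlation across the 46 genes was -0.0553, and it was 0.0933 across all genes, where genes share the arrays and are not independent. No member was called by limma for the difference between the knockout effects, with 5 at an unadjusted p under 0.05 (10.9%, against 6.81% of all genes). They were Slc25a2, Slc25a34 and Ucp3, with a higher effect at 10 weeks (3.44% of all genes), and Slc25a29 and Slc25a43, with a lower one (3.38%). Over all genes 0 passed that test.

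**Figure D4:**
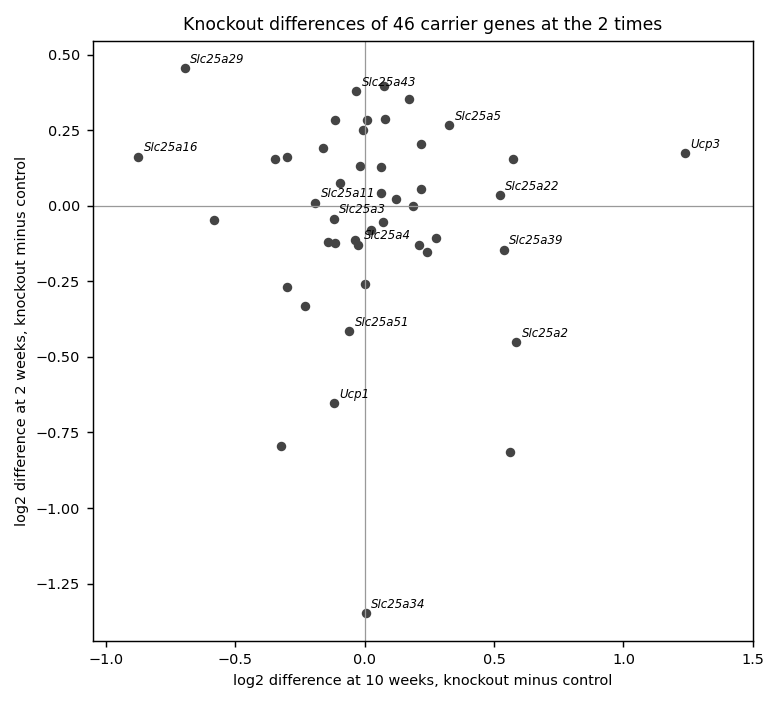
Log2 difference, knockout minus control, at 10 weeks (horizontal) and 2 weeks (vertical) for the 46 carrier genes, each point 1 gene. The points scatter around the centre with a correlation of -0.0553, and Slc25a5 is to the upper right at 0.33 and 0.27.

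Time within a genotype, which runs together with the age of the mice, gave no call among the members. Within knockouts, 0 of 46 passed for 10 against 2 weeks, where 0.389% of all genes passed, and 3 had an unadjusted p under 0.05 (6.52%, against 11.2% of all genes). On the higher side, with 5.19% of all genes, was Slc25a28 at 0.47 ± 0.14 (SE, adjusted p = 0.180). On the lower side, with 6% of all genes, were Slc25a43 and Slc25a11 at -0.41 ± 0.13 and -0.21 ± 0.07 (SE, adjusted p = 0.219 and 0.295). Within controls, 0 of 46 passed and 5 had an unadjusted p under 0.05 (10.9%, against 4.17% of all genes), with 0 genes called over the whole array. These were Slc25a14 and Slc25a29 on the higher side (1.93% of all genes) and Slc25a2, Slc25a34 and Slc25a22 on the lower side (2.25%). The 3 probes of Slc25a37 lay at 0.84, 0.03 and -0.78 for time within knockouts, and at 0.55, 0.59 and 0.15 within controls. With limma on single probes, the first had an adjusted p of 0.0763 within knockouts. These probes are given here after their values were seen. Since the contrasts share arrays, a low control group at 10 weeks enters both the time difference in controls and the knockout difference at 10 weeks.

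How small a difference could be seen varied widely among the members. The SD within groups ran from 0.0281 for Slc25a11 to 0.925 for Slc25a35, with a median of 0.331, against 0.307 over all genes. At 10 weeks the 95% interval lay wholly between -0.5 and 0.5 for 13 members (28.3%, against 33.7% of all genes) and between -1 and 1 for 34. The 13 were Slc25a3, Slc25a4, Slc25a11, Slc25a13, Slc25a14, Slc25a17, Slc25a21, Slc25a23, Slc25a30, Slc25a31, Slc25a43, Slc25a48 and Slc25a51. Whether each of them had signal over background was not checked. Slc25a17 averaged 3 probes whose median correlation with each other was -0.502. Of the other 33, the interval of 32 held 0.5 or -0.5, and that of Ucp3 lay wholly above 0.5. Leaving out 1 array of the groups compared turned the sign of the difference in 21 of 46 members at 10 weeks and in 24 at 2 weeks.

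Probes of a gene often disagreed. For the 21 members with more than 1 probe, the median correlation between probes over the 15 arrays was 0.0603, against 0.0342 for 8511 genes of the array. It exceeded 0.5 for Slc25a4 and for Slc25a33 (0.754). The probes had 1 sign at 10 weeks for 12 of the 21 genes and at 2 weeks for 10. The other 25 members, Ucp3, Slc25a5, Slc25a11, Slc25a16, Slc25a22 and Slc25a34 among them, had a single probe and no such check.

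**Figure D5:**
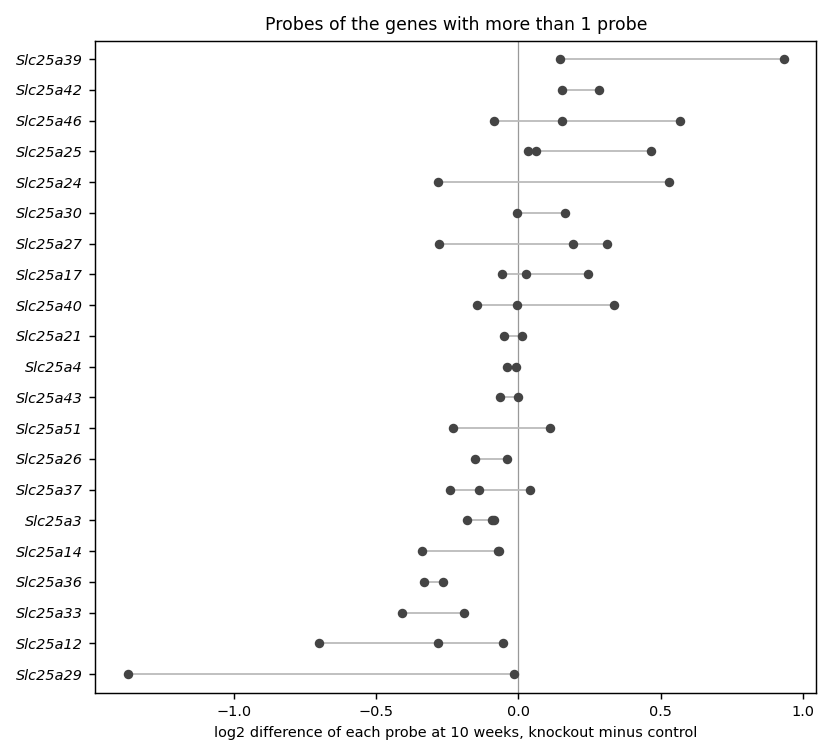
Log2 difference at 10 weeks, knockout minus control, of each probe (points) of the 21 carrier genes with more than 1 probe, joined by a grey line. The probes of Slc25a4 nearly coincide, while those of Slc25a29 lie at -1.37 and -0.02.

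Other genes of mitochondrial transport gave no call either. The 32 measured genes covered the pyruvate carrier Mpc1, outer membrane channels, sideroflexins, carrier import, the calcium uniporter, ABC transporters, carrier-like proteins and shuttle enzymes. Of these limma called 0 at each time, where it called 0.686% of all genes at 10 weeks and 0.00512% at 2 weeks. At 10 weeks 3 lay higher and 2 lower at an unadjusted p under 0.05, and at 2 weeks none did. Over all genes 4.75% lay higher and 5.21% lower by that measure at 10 weeks, and 7.25% passed it at 2 weeks. The median difference was -0.011 at 10 weeks and 0.0050 at 2 weeks.

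The lowest p-values at 10 weeks in that list belonged to genes of carrier import and of the shuttle. Timm13, a small chaperone that guides proteins across the space between the membranes, had 0.15, 0.34, 0.14 and 0.25 in knockouts, against -0.08, -0.14, -0.19 and 0.05 in controls. Its difference was 0.31 ± 0.09 (SE, adjusted p = 0.155). Timm10, a chaperone of carrier import, differed by 0.34 ± 0.12 (SE, adjusted p = 0.295), with 0.36, 0.26, 0.29 and 0.29 in knockouts and 0.04, -0.03, 0.07 and -0.25 in controls. For both, all knockouts lay above all controls, while Timm8a1, a partner of Timm13, differed by -0.36 ± 0.15 (SE, adjusted p = 0.418).

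Got2, the mitochondrial aspartate aminotransferase of the malate-aspartate shuttle, lay on the same side as Slc25a11. It had -0.31, -0.38, -0.09 and -0.34 in knockouts at 10 weeks, against 0.03, -0.01, -0.11 and 0.00 in controls, a difference of -0.26 ± 0.10 (SE, adjusted p = 0.368). The groups overlapped by 1 array. The 3 other shuttle enzymes of the list, Got1, Mdh1 and Mdh2, given here after their values were seen, differed by -0.16, -0.10 and -0.14. Their adjusted p were 0.747, 0.898 and 0.751. Got2, Mdh1 and Mdh2 differed by 0.02, -0.19 and 0.01 at 2 weeks. At 2 weeks the lowest p-values were those of Mtch1, an outer membrane relative of the carriers, at 0.30 ± 0.15 (SE, adjusted p = 0.722), and Got1 at -0.23 ± 0.13 (SE, adjusted p = 0.750).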

How the data were processed

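Heart RNA (500 ng) was set against a reference of whole mouse RNA on Agilent arrays of 2 colours, per the labels' protocols. The values that the authors deposited are a table of 41267 probes on 15 arrays, taken as log2 ratios, with each probe's median at 0 (within 1e-06). The sources used here do not give the log base, direction, scanning software, background correction or scaling. Signal over background was not used, so the number of arrays limits the precision. The labels call the arrays biological replicates and name no batch.

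Probes with 1 gene symbol (32664) were averaged to 19532 genes. limma 3.58.1 in R 4.3.3 fitted 4 group means on all arrays (11 residual degrees of freedom, 2.07 added by moderation). P-values are two-sided and Benjamini-Hochberg adjusted over all genes, and called means adjusted p under 0.05. Errors of differences are SE from limma. The fit was tested on simulated data with known changes in 200 of 19532 genes. Its noise was independent and normal, with each gene's SD within groups taken as true. It called 55% of 2-fold changes at 10 weeks and 45.5% at 2 weeks. For 4-fold changes the shares were 87% and 84%. Between 6 and 9 unchanged genes were called in each case. The shares are means over genes of every spread, so they do not give the chance of a call for a given member.

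Members and lists were chosen with earlier results of these data known. Values of every array are given for members called in a knockout contrast or in the difference between the effects, the 8 and 5 members with the smallest p at 10 and 2 weeks, up to 3 called members per time contrast, the ATP and ADP and phosphate carriers of heart and the uncoupling proteins. Up to 4 companion genes with the smallest p are named at each time. Alternatives covered scaling, choice of probe, arrays in the fit, moderation, array weights, a replicate block and leaving out each array. Sequences are from RefSeq tables (GRCm38.p6), and all 46 members matched them by gene identifier.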

Additional observations from a re-analysis of the deposited data

Results flagged for a closer look

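Single arrays stood apart from the rest of their group in 3 of 42 sets of 4 arrays tested with Dixon's criterion (critical value 0.829), over the 14 carrier genes described array by array, where chance gives about 1 in 20. For Slc25a2, knockout 10 weeks replicate 2 was at 1.03, with the other knockouts between -0.07 and 0.04. For the same gene, control 2 weeks replicate 3 was at 1.30, with the other controls between 0.02 and 0.10. For Slc25a4, control 2 weeks replicate 4 was at 0.30, with the other controls between 0.02 and 0.06.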

How the results depend on the processing

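Over 8 planned settings and 1 added after the data were seen, limma called 0 carrier genes at 2 weeks, for the difference between the effects and for time within controls. The fit on the arrays of the groups compared could not be made for the difference, which needs all arrays. At 10 weeks it called 0 in each except without moderation of the spread, where it called 2 carrier genes, Slc25a11 and Slc25a5, and 1 companion gene, Timm13. That setting also called 1 carrier gene, Slc25a11, for time within knockouts, where it called 116 of all genes, against 76 with moderation. Leaving out each of the 15 arrays gave 0 to 1 carrier genes at 10 weeks, the 1 being Ucp3 without control 2 weeks replicate 2. The replicate block left the count at 0 in each contrast. Of 14 correlations of deviations between same-numbered arrays, 1 was above 0.1. It was 0.123, the highest of any 2 arrays, so a pairing was neither shown nor excluded.

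Of 224 values of the 14 carrier genes under other settings, 218 kept their sign and their side of the threshold, and Slc25a11 and Slc25a5 at 10 weeks passed it without moderation. Slc25a3 at 2 weeks turned to 0.0031 with quantile normalization, 0.0118 with the most variable probe and 0.0029 with the replicate block, from -0.04. Slc25a51 at 10 weeks turned to 0.11 with the most variable probe. Signs also turned when 1 array was left out. At 10 weeks the ranges were -0.0591 to 0.0964 for Slc25a34, -0.305 to 0.0601 for Ucp1, -0.0608 to 0.0045 for Slc25a4, -0.185 to 0.0705 for Slc25a51 and -0.19 to 0.0046 for Slc25a3. At 2 weeks they were -0.19 to 0.27 for Slc25a22, -0.0048 to 0.0192 for Slc25a11, -0.32 to 0.68 for Slc25a16 and -0.11 to 0.44 for Ucp3.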
